A study of Homo sapiens with 10 samples.

Results

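The dual-specificity phosphatases DUSP1, DUSP4, DUSP5, DUSP6 and DUSP10, the Sprouty proteins SPRY1, SPRY2 and SPRY4, and the Sprouty-related proteins SPRED1 and SPRED2 were followed on 10 Affymetrix arrays of SKBR3 cells. These 10 genes were chosen by name as feedback inhibitors of mitogen-activated protein kinases, and every probe set annotated to one of them alone was taken. They had 22 probe sets among the 41097 on the array that carry a single gene symbol. Of these, 16 passed the filter on low signal and were tested, with at least 1 for each of the 10 genes, and 6 lay below it.

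SKBR3 is an established breast carcinoma line with amplified HER2 and a mutant p53. Cultures in medium with charcoal-stripped serum were transfected with siRNA against p53 (p53i) or, as the negative control, against bacterial LacZ (LacZi). For each siRNA there was 1 array after 8 h, 1 after 20 h and 1 after 50 h with 100 nM calcitriol (D3), the active hormone made from vitamin D3, and there were 2 arrays of untreated cells. The comparisons ask how each gene responds to D3, how it differs with siRNA against mutant p53, and whether p53i and LacZi cells respond to D3 unequally. The labels name no untreated sample taken at 8, 20 or 50 h, so the effects of D3 and of longer culture cannot be told apart. The transcript that the p53 siRNA targets was not analysed here. All arrays came from 1 cell line, and nothing states that the D3 arrays came from separate cultures.

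Growth factor receptors such as HER2 pass their signal through RAS, RAF and MEK to the kinase ERK, and active ERK induces many of the proteins that shut the pathway off again. DUSP phosphatases remove the activating phosphates from ERK, p38 or JNK, each with its own preference, while Sprouty and SPRED proteins act further upstream, at the membrane, on RAS and RAF. Transcript levels of this family are therefore often read as a record of ERK output. DUSP10, which prefers p38 and JNK, is also known as a vitamin D target in prostate cells.

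Promoter sequence is shown for SPRY4, the single gene of the family that passed the test for D3, and for DUSP10, which is included in the family as a vitamin D target. The windows are from RefSeq on GRCh38.p14 and run from 250 bases before to 50 after an annotated start site, written 5′ to 3′ on the gene's own strand. Capitals mark the vitamin D receptor half-site AGGTCA and the cAMP response half-site TGACG, each read on the printed strand or as its reverse complement.
SPRY4, chr5:142324198-142324497, minus strand: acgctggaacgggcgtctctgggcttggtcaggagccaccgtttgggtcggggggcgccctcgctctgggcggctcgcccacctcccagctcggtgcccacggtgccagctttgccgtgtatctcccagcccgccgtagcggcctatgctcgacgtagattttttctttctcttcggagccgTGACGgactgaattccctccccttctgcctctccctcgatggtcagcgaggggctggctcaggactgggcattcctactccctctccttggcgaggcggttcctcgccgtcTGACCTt
DUSP10, chr1:221736851-221737150, minus strand: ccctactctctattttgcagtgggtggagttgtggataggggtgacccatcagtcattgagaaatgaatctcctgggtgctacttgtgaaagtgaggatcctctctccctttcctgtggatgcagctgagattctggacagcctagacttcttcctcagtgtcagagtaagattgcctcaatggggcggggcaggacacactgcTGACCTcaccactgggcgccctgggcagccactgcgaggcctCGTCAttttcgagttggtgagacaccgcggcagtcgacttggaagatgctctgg
DUSP10, chr1:221742040-221742339, minus strand: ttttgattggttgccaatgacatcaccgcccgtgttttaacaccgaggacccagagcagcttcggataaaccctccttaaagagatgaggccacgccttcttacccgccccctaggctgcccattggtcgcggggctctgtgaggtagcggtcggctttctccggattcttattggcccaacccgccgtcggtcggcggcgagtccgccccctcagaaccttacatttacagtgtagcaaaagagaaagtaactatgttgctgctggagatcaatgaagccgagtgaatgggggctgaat

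The table held 13 windows for 8 of the 10 genes, and those of DUSP4 and DUSP5 were not analysed here. AGGTCA occurred in 2 of the 13 windows, the SPRY4 window (44 bases past the start) and the DUSP10 window that starts further into the gene (46 bases before the start), against 13.8% of all 35116 windows in the table. The other vitamin D receptor half-site searched, GGTTCA, and the full element of direct repeats spaced by 3 bases occurred in 0 of the 13 windows, against 8.62% and 0.074% of all windows. TGACG occurred in 5 of the 13, against 24.6% of all windows. The complete cAMP response element TGACGTCA, which contains TGACG, occurred in 1, that of DUSP1, against 1.85%. The ETS core CCGGAA was found in 2 (17.2% of all windows), the AP-1 site TGANTCA in 1 (7.71%), TATAAA in 2 (11.5%), the GC box GGGCGG in 9 (45%) and the serum response CArG box in 0 (1.29%). Both strands were searched, and a match describes the letters of a window, not a bound site.

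The deposited values are MAS5 signals, on a linear scale and scaled array by array, and differences are given as log2 of the signal plus 16. A probe set was called where its adjusted p over all 22031 tested probe sets was under 0.05. Median signals were 35.7 to 44.3 per array, and the number of arrays limits the precision. Of 9 markers of luminal, HER2-positive breast carcinoma, 8 lay above the filter, among them ERBB2 at 12690 to 19099, and CDH1, E-cadherin, lay below it with a median of 8.45. Markers of leukocytes lay above it for 0 of 3 genes, those of fibroblasts for 1 of 3 (COL1A1) and those of endothelium for 1 of 3 (PECAM1). CYP24A1, which inactivates calcitriol and is the standard check of the hormone, averaged 5094 ± 804 with D3 and 33.3 ± 6.86 in untreated cells (SD, n = 6 and 4), a difference of 6.69 ± 0.10 (SE; adjusted p = 2.17e-12). In whole cultures, fewer cells of a type and less RNA per cell cannot be told apart.

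With D3, SPRY4 rose, and it was the 1 probe set of 16 in the family to be called over the 3 times, against 2.49% of all tested probe sets. SPRY4, a Sprouty that inhibits ERK activation below receptor tyrosine kinases, is measured by 1 probe set (221489_s_at, chromosome 5). In p53i cells its signal was 454 and 331 untreated, 548 at 8 h, 562 at 20 h and 745 at 50 h with D3. The LacZi arrays gave 535 and 534 untreated, 702 at 8 h, 691 at 20 h and 718 at 50 h. Every D3 array lay above the untreated mean of its own siRNA, in 6 of 6, and the D3 and untreated signals did not overlap. This was 1 of 16 probe sets without overlap, against 3.8% of all tested. All 6 D3 arrays lay above their untreated mean for 3 of the 16 probe sets. For all tested probe sets that was not counted. The 3 D3 arrays of a siRNA share 1 untreated mean, so the 6 are not independent.

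**Figure D1:**
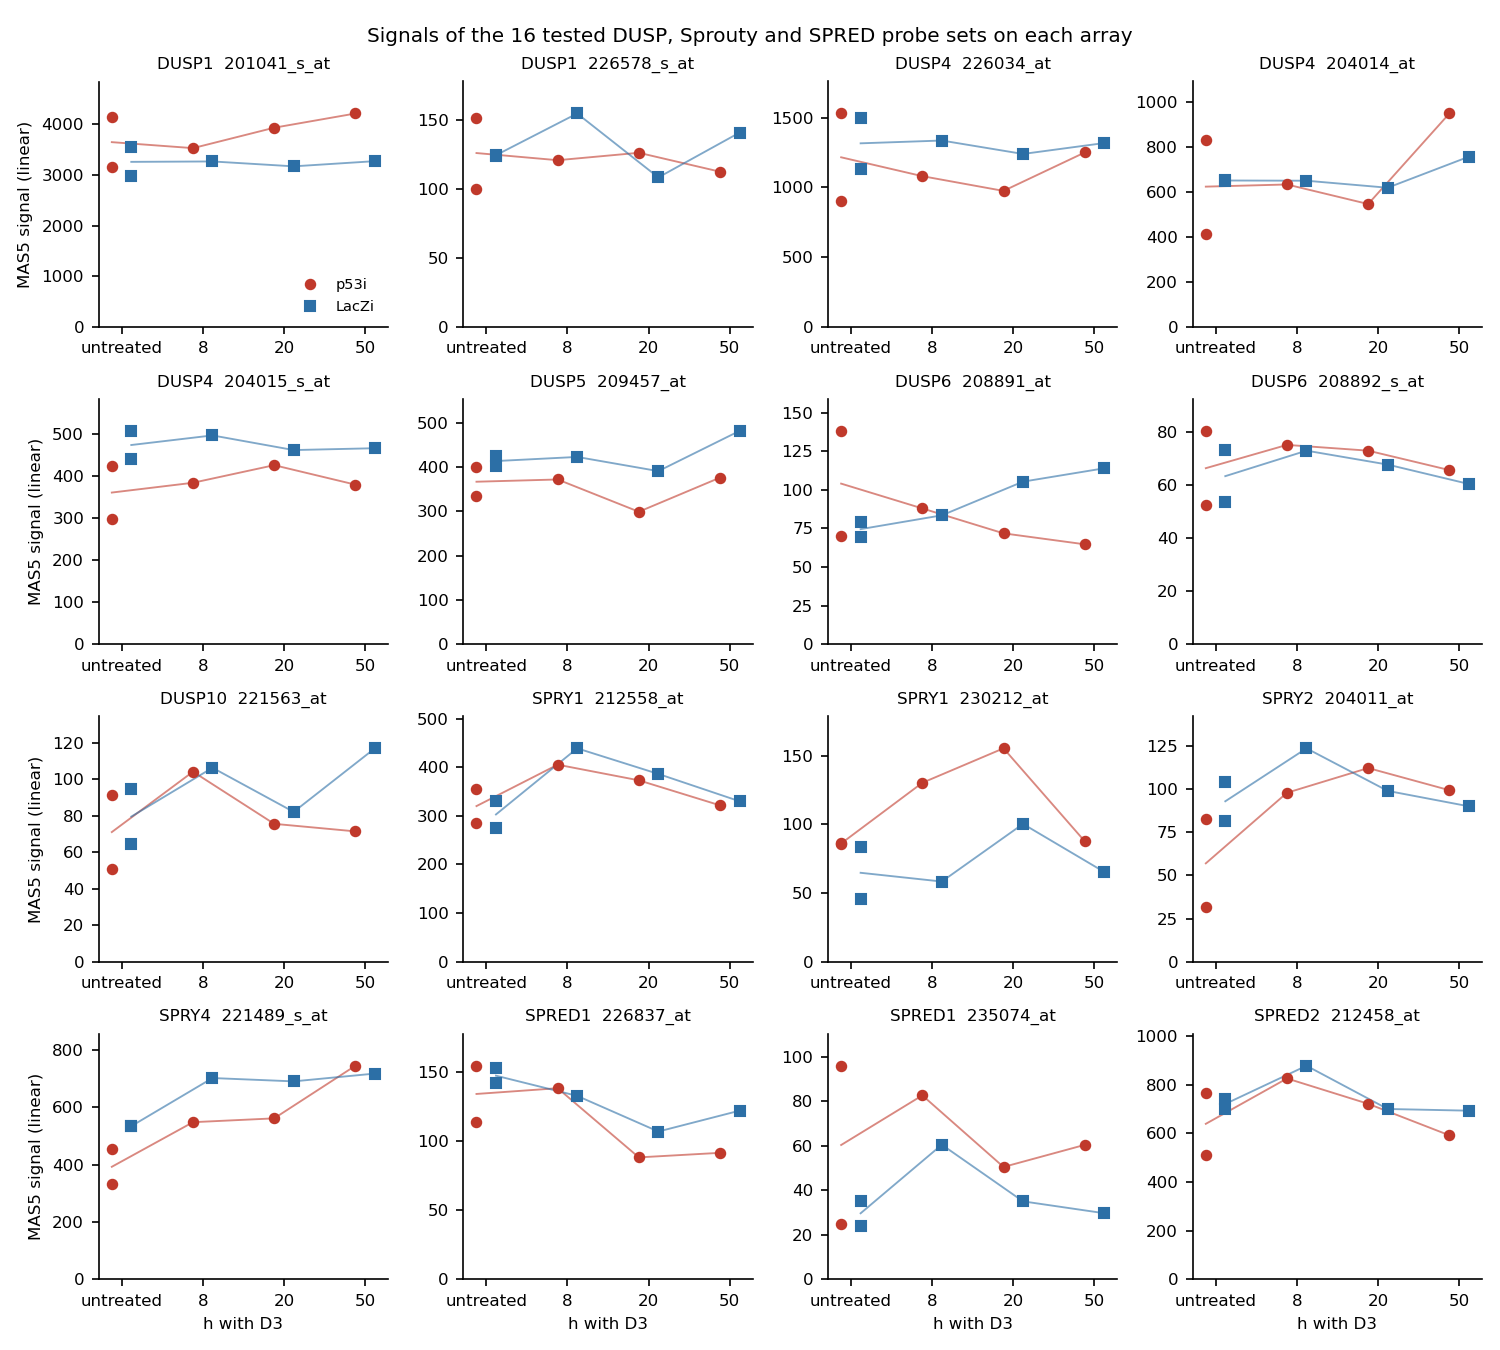
MAS5 signal (linear) of the 16 tested probe sets on each of the 10 arrays, untreated and after 8, 20 and 50 h with 100 nM D3; red circles are p53i arrays, blue squares LacZi arrays, and lines join the array values through the mean of the untreated pair. SPRY4 lies between 548 and 745 on the D3 arrays and between 331 and 535 on the untreated ones, while the other panels overlap between D3 and untreated cells.

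SPRY4 averaged 661 ± 84.4 with D3 and 463 ± 96.2 in untreated cells (SD, n = 6 and 4), a log2 difference of 0.51 ± 0.11 (SE; limma adjusted p = 0.041). By time, the difference was 0.43 at 8 h (adjusted p = 0.631), 0.44 at 20 h (adjusted p = 0.263) and 0.67 ± 0.15 at 50 h (adjusted p = 0.0441). The change between 8 and 50 h was 0.23 (adjusted p = 0.767), so a difference between the times was not shown. The call over the 3 times was lost in 8 of 10 fits that left out 1 array, with values of 0.399 to 0.585, and under median centring of the arrays (0.422, adjusted p = 0.0655), without the filter (adjusted p = 0.0629), without an intensity trend (adjusted p = 0.13), with 8 group means (adjusted p = 0.164) and without the pair of arrays with the highest ACTB 3′ to 5′ ratio (0.413, adjusted p = 0.0707). The call at 50 h was likewise lost in 8 of the 10 fits that left out 1 array. Both values stayed positive in every one of the alternatives run.

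**Figure D2:**
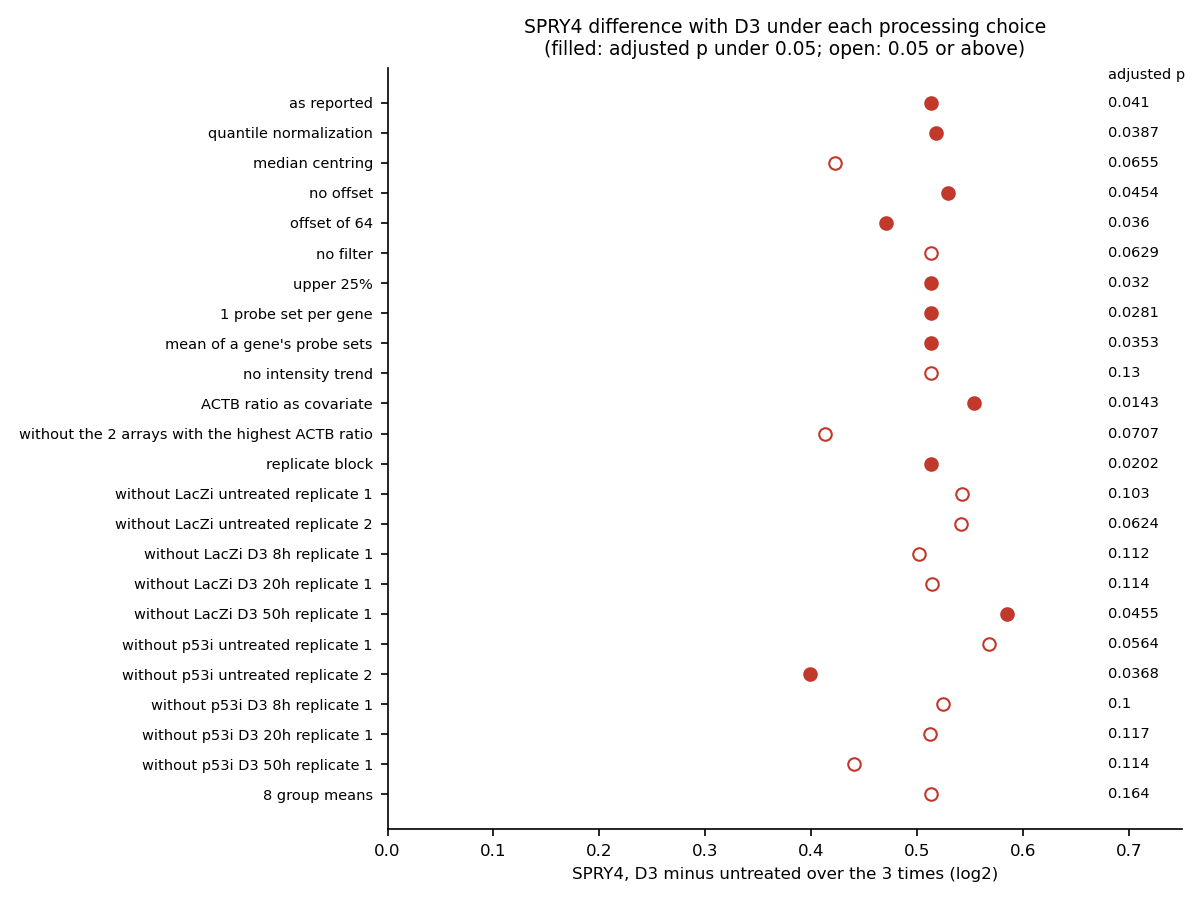
Log2 difference of SPRY4 between D3 and untreated cells over the 3 times (horizontal axis) under each processing choice and with each array left out; filled points have an adjusted p under 0.05, open points do not, and the adjusted p stands at the right. All points lie between 0.399 and 0.585, and most of the open ones come from fits with fewer arrays.

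SPRY1 and SPRY2, the other Sproutys of the family, gave positive D3 differences that did not pass the test. SPRY1 on 212558_at read 356 and 285 untreated, 405 at 8 h, 373 at 20 h and 322 at 50 h in p53i cells. Its LacZi signals were 275 and 331 untreated, 439 at 8 h, 386 at 20 h and 330 at 50 h. All D3 arrays lay above their own untreated mean, in 6 of 6, and the 8 h array was the top one for each siRNA. The difference was 0.26 ± 0.11 over the 3 times (adjusted p = 0.249), with 0.43 at 8 h (adjusted p = 0.611), 0.28 at 20 h and 0.07 at 50 h. A second SPRY1 probe set, 230212_at, was also positive over the 3 times (0.31, adjusted p = 0.446), with its top D3 value at 20 h in both siRNAs.

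SPRY2 (204011_at), which binds the ubiquitin ligase CBL, read 82.4 and 31.5 untreated, 97.9 at 8 h, 112 at 20 h and 99.4 at 50 h in p53i cells. LacZi arrays read 104 and 81.6 untreated, 124 at 8 h, 99 at 20 h and 90 at 50 h. Its lowest signal, 31.5, is p53i untreated replicate 2, and without it the other 9 arrays run from 81.6 to 124. Over the 3 times the D3 difference was 0.47 ± 0.23 (adjusted p = 0.327). Without p53i untreated replicate 2 it was 0.19 (adjusted p = 0.592).

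DUSP10 (221563_at), the p38 and JNK phosphatase, read 91.5 and 50.6 untreated, 104 at 8 h, 75.6 at 20 h and 71.4 at 50 h in p53i cells. Signals of LacZi arrays were 64.5 and 94.6 untreated, 106 at 8 h, 82.1 at 20 h and 117 at 50 h. All 6 D3 arrays lay above the untreated mean of their siRNA, but the D3 signals, 71.4 to 117, overlapped the untreated ones, 50.6 to 94.6. The difference was 0.27 ± 0.19 over the 3 times (adjusted p = 0.534) with a 95% interval of -0.15 to 0.69, and 0.44 ± 0.26 at 8 h (adjusted p = 0.84). Of the p53i untreated arrays, leaving out replicate 2 gave 0.14 over the 3 times and leaving out replicate 1 gave 0.41. A difference as large as the 0.51 of SPRY4 lay within that interval and was not detectable with these arrays. The second DUSP10 probe set, 215501_s_at, had signals of 3.1 to 52.3 and lay below the filter.

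Of the remaining phosphatases, 0 of 8 tested probe sets were called with D3 over the 3 times, against 2.49% of all tested probe sets. DUSP6, the cytoplasmic phosphatase specific for ERK and one of the usual readouts of ERK activity, differed by 0.01 (208891_at, adjusted p = 0.994) and 0.09 (208892_s_at, adjusted p = 0.858). The 95% intervals were wide, at -0.48 to 0.49 and -0.30 to 0.48. On 208891_at the D3 difference was 0.36 within LacZi and -0.35 within p53i cells. DUSP5 (209457_at), its nuclear counterpart, differed by -0.01 ± 0.10 (adjusted p = 0.981), with a 95% interval of -0.22 to 0.21. DUSP4, a nuclear phosphatase of ERK and JNK, differed by -0.05 (226034_at), 0.08 (204015_s_at) and 0.14 (204014_at). On 204014_at it was highest at 50 h, with 949 in p53i and 756 in LacZi cells, a difference of 0.44 from untreated cells that did not pass (adjusted p = 0.314). DUSP1, an immediate early gene whose product acts on p38, JNK and ERK, differed by 0.05 (201041_s_at, adjusted p = 0.841), with a 95% interval of -0.15 to 0.25, and by 0.02 (226578_s_at, adjusted p = 0.963).

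SPRED1 and SPRED2, which restrain RAS and RAF at the membrane, gave mixed signs. SPRED1 on 226837_at read 155 and 114 untreated, 138 at 8 h, 88.3 at 20 h and 91.6 at 50 h in p53i cells. On LacZi arrays the values were 142 and 153 untreated, 133 at 8 h, 107 at 20 h and 122 at 50 h. Arrays at 20 and 50 h lay below the untreated mean in both siRNAs, and the difference over the 3 times was -0.29 ± 0.14 (adjusted p = 0.343), with -0.46 ± 0.19 at 20 h (adjusted p = 0.372). The second SPRED1 probe set, 235074_at, gave 0.27 ± 0.28 (adjusted p = 0.675), which became 0.002 with p53i untreated replicate 2 left out and 0.56 with replicate 1 left out instead. Over the 10 arrays the pair correlated at r = 0.0972. SPRED2 (212458_at) differed by 0.12 (adjusted p = 0.663), with its highest signals at 8 h, 827 in p53i and 879 in LacZi cells.

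Across the family, 13 of 16 probe sets had a positive D3 difference over the 3 times, and the median was 0.10, beside 0.005 for all tested probe sets. With p53i untreated replicate 2 left out, 8 of 16 were positive and the median was -0.002, beside 0.001 for all. Without p53i untreated replicate 1 the median was 0.23 with 13 of 16 positive. Median centring left 8 of 16 positive with a median of 0.01, beside -0.09 for all, and without the pair of arrays with the highest ACTB 3′ to 5′ ratio 9 of 16 were positive with a median of 0.03. At 8 h 0 of 16 were called by limma (0.104% of all; 3 of 16 and 6.69% of all had an unadjusted p under 0.05), at 20 h 0 of 16 (0.304% of all; 3 of 16 and 11.8% of all unadjusted) and at 50 h 1 of 16, SPRY4 (2.32% of all). Between 8 and 50 h 0 of 16 were called (0.0272% of all; 1 of 16 and 8.58% of all unadjusted). These comparisons share their untreated arrays.

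**Figure D3:**
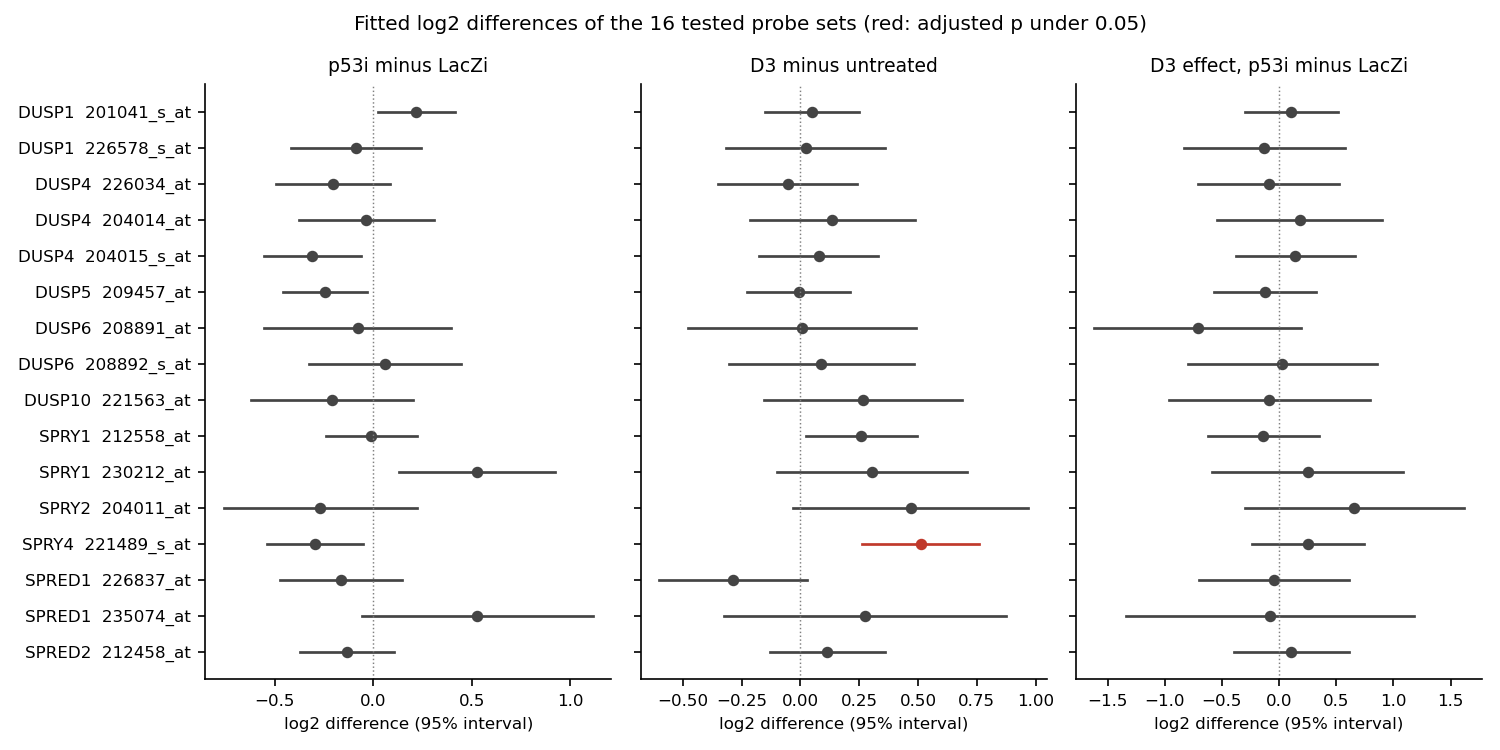
Fitted log2 differences of the 16 tested probe sets with 95% intervals, for p53i minus LacZi over all conditions (left), D3 minus untreated over the 3 times (middle) and the D3 difference in p53i minus that in LacZi cells (right); red marks an adjusted p under 0.05. SPRY4 with D3, at 0.51, is the single red point, and the intervals of the right panel are the widest.

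With siRNA against p53, 0 of 16 probe sets of the family were called over all conditions, against 3.82% of all tested probe sets, and 5 of 16 had an unadjusted p under 0.05, against 20.7% of all. The median difference, p53i minus LacZi, was -0.11, beside -0.02 for all, with 4 of 16 positive. That direction did not hold with the ACTB 3′ to 5′ ratio as a covariate, where the median was 0.06 and 11 of 16 were positive, beside -0.01 for all. The median was -0.04 without p53i untreated replicate 2, -0.22 without p53i untreated replicate 1, -0.04 without the pair of arrays with the highest ratio and -0.06 under median centring. DUSP4 on 204015_s_at was the 1 probe set of 16 whose siRNA groups did not overlap, against 5.48% of all tested. It read 422 and 298 untreated, 384 at 8 h, 425 at 20 h and 379 at 50 h in p53i cells. LacZi values were 507 and 440 untreated, 496 at 8 h, 461 at 20 h and 466 at 50 h. Every p53i array was thus below all of the LacZi arrays, with a difference of -0.31 ± 0.11 (adjusted p = 0.146). The other tested DUSP4 probe sets differed less, by -0.20 on 226034_at (limma adjusted p = 0.421) and -0.04 on 204014_at (adjusted p = 0.927). The 3′ to 5′ ratio of the ACTB control probe sets, which rises as RNA is degraded, averaged 6.22 ± 1.77 in p53i and 4.46 ± 0.523 in LacZi arrays (SD, n = 5 each; two-sided exact permutation p = 0.0714). With that ratio as a covariate the DUSP4 difference was -0.17 on 204015_s_at (adjusted p = 0.651), 0.01 on 226034_at and 0.30 on 204014_at. The summed signal of the luminal markers was also higher in p53i arrays, at 78959 to 103216, against 69648 to 76552 in LacZi arrays. The part of either in these differences was not tested beyond that covariate.

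The other siRNA differences of the family pointed both ways. DUSP5 read 400 and 334 untreated, 372 at 8 h, 299 at 20 h and 376 at 50 h in p53i cells. Among LacZi arrays the signal was 426 and 402 untreated, 423 at 8 h, 391 at 20 h and 482 at 50 h. In p53i cells the mean was lower in 4 of 4 matched comparisons, with a log2 difference of -0.25 ± 0.10 (adjusted p = 0.176), although the groups overlapped. With the ACTB ratio as covariate the DUSP5 difference was -0.16 (limma adjusted p = 0.615). Of the 16 tested probe sets, 4 were lower and 4 higher in p53i cells in 4 of 4 matched comparisons. For all tested probe sets this was not counted, and each D3 time has 1 array per siRNA. SPRY4 was -0.30 ± 0.11 (adjusted p = 0.156), and -0.14 with the ACTB ratio as covariate (adjusted p = 0.7). In the other direction, DUSP1 on 201041_s_at averaged 3794 ± 445 in p53i and 3245 ± 205 in LacZi cells (SD, n = 5 each), a difference of 0.22 ± 0.09 (adjusted p = 0.187) that had the same sign in 4 of 4 matched comparisons and was 0.09 with the ACTB ratio as covariate (adjusted p = 0.765). Its other probe set, 226578_s_at, gave -0.09 (adjusted p = 0.797; -0.32 with the covariate, adjusted p = 0.483), and the pair correlated at r = 0.189. SPRY1 on 230212_at gave 0.53 ± 0.18 (adjusted p = 0.124; 0.64 with the covariate, adjusted p = 0.293), while 212558_at gave -0.01 (adjusted p = 0.974). SPRED1 on 235074_at gave 0.53 ± 0.27 (adjusted p = 0.293) and 0.96 with the covariate (adjusted p = 0.215). Its other tested probe set, 226837_at, gave -0.16 (adjusted p = 0.554).

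Among D3 cells alone 0 of 16 were called between the siRNAs (0.277% of all). In untreated cells 0 of 16 were called, as were 0% of all tested probe sets by limma, of which 11% had an unadjusted p under 0.05. There the differences ran from -0.664 for SPRY2 (adjusted p = 0.547) to 0.576 for SPRED1 on 235074_at (adjusted p = 0.686). Both rest on p53i untreated duplicates that stand far apart, with signals of 82.4 and 31.5 for SPRY2 and 96 and 24.7 for SPRED1.

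Whether D3 acts differently in p53i cells was tested by the interaction, which called 0 of 16 probe sets of the family and 0% of all by limma (0 of 16 and 6.01% of all at an unadjusted p under 0.05). Without p53i untreated replicate 1 the interaction called 199 of all tested probe sets and still 0 of the family. DUSP6 on 208891_at had the most negative value. It read 138 and 69.9 untreated, 87.9 at 8 h, 71.8 at 20 h and 64.7 at 50 h in p53i cells. The LacZi series was 79.4 and 69.6 untreated, 83.5 at 8 h, 105 at 20 h and 114 at 50 h. In p53i cells the 3 D3 arrays lay below the untreated mean and in LacZi cells above it, a difference between the D3 effects of -0.71 ± 0.41 (adjusted p = 0.864; 95% interval -1.62 to 0.19). The signal of 138 in p53i untreated replicate 1 is the highest of the 10 arrays, and without that array the value was -0.29 (adjusted p = 0.824). The other DUSP6 probe set, 208892_s_at, gave 0.03 (adjusted p = 0.997).

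SPRY2 and SPRY4 had interaction values of 0.66 ± 0.43 (adjusted p = 0.876) and 0.25 ± 0.22 (adjusted p = 0.911). Without p53i untreated replicate 2 they were 0.13 for SPRY2 and 0.03 for SPRY4, while leaving out replicate 1 of that group gave 1.18 for SPRY2 and 0.47 for SPRY4. The 95% interval of SPRY4, -0.24 to 0.74, spans both no difference and one larger than its D3 effect. Within p53i cells the D3 difference of SPRY4 was 0.64 (adjusted p = 0.104) and within LacZi cells 0.39 (adjusted p = 0.417). In p53i cells 0 of 16 were called (0.404% of all) and in LacZi cells 0 of 16 (0.231% of all). Without p53i untreated replicate 1, the D3 differences in p53i cells were 1.32 for SPRY2, 0.86 for SPRY4 and 0.72 for DUSP4 on 204014_at. These values are set against the remaining untreated array alone.

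That remaining array, p53i untreated replicate 2, stood apart for the family. It was the lowest of the 10 arrays for 8 of 16 probe sets and the highest for 0, whereas over all tested probe sets it was the lowest for 16.3% and the highest for 14.8%. Its duplicate, replicate 1, was the highest array for 5 of 16 and the lowest for 1, against 10.3% of all tested probe sets each. The median deviation of the 16 probe sets from their own medians over the arrays was -0.40 on p53i untreated replicate 2, beside -0.01 for all tested probe sets. Its ACTB 3′ to 5′ ratio, 8.72, was the highest of the 10, where the others ran from 3.79 to 7.11. SPRY4 with D3 was 0.40 without this array, with an adjusted p of 0.0368. Between D3 and untreated arrays the ratio averaged 5.41 ± 0.996 and 5.24 ± 2.33 (SD, n = 6 and 4; two-sided exact permutation p = 0.914).

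**Figure D4:**
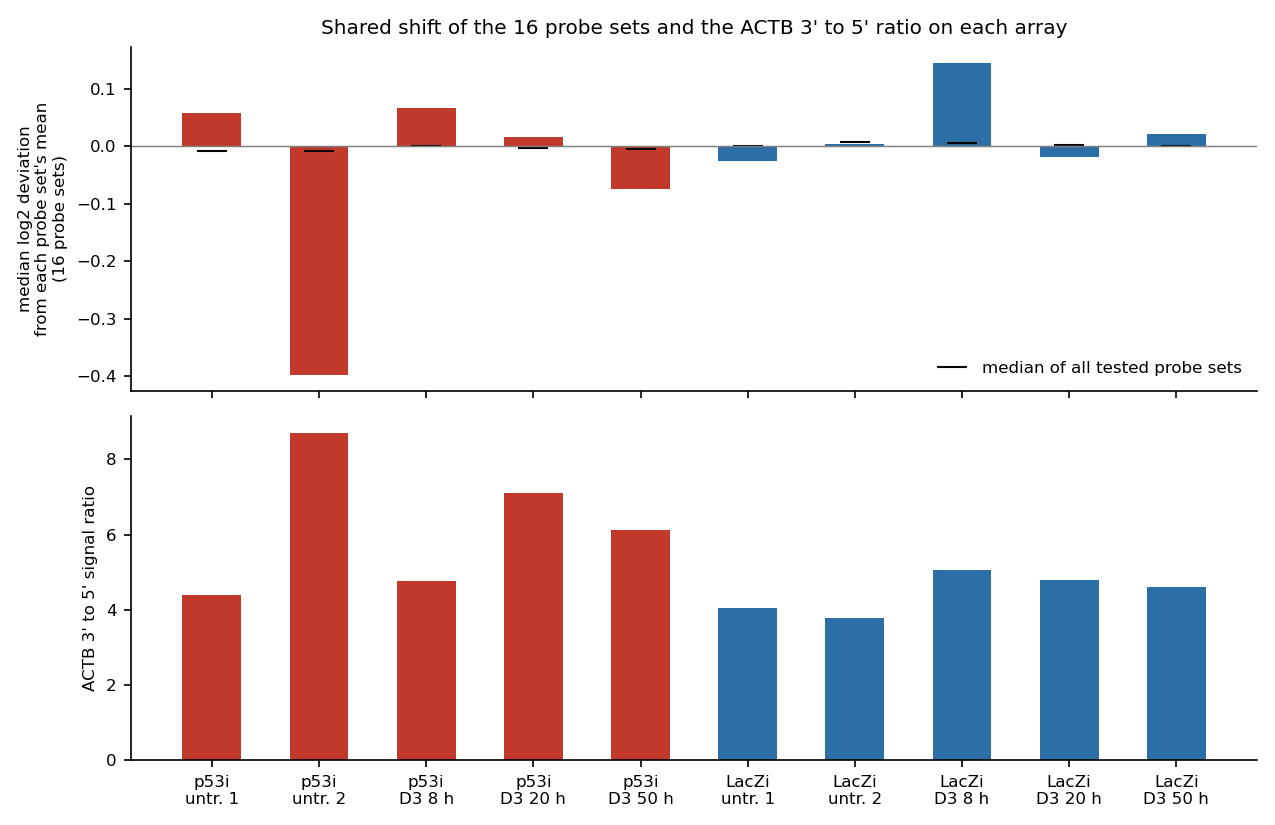
Upper panel: median log2 deviation of the 16 probe sets on each array from their own medians over the arrays (the axis label reads mean). Black marks are the median of all tested probe sets. Lower panel: 3′ to 5′ signal ratio of the ACTB control probe sets. Red bars are p53i and blue bars LacZi arrays; p53i untreated replicate 2 has the lowest family median (-0.40) and the highest ratio (8.72).

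Probe sets of 1 gene did not always follow each other over the 10 arrays. DUSP4 gave r of 0.721, 0.701 and 0.395 among its 3 tested probe sets, SPRY1 0.392 and DUSP6 0.312. The 6 probe sets below the filter reached at most 82.9 (DUSP1, 201044_x_at, in LacZi untreated replicate 2), and those of DUSP6 (208893_s_at), SPRED1 (244439_at) and SPRED2 (212466_at and 214026_s_at) stayed between 0.761 and 31 on every array.

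The other genes of the pathway were read from lists chosen with earlier results of these data known. Of the ERK cascade, 15 genes had 33 tested probe sets, of which 2 were higher in p53i cells. They were MAPK3, which encodes ERK1 (0.58, adjusted p = 0.0207), and MAP2K2 on 202424_at, which encodes a MEK (0.51, adjusted p = 0.0362). These 2 of 33 stood against 3.82% of all tested probe sets. The other MAP2K2 probe sets on the array, 213487_at and 213490_s_at, were not called. At an unadjusted p under 0.05 there were 6 of 33, against 20.7% of all. The median siRNA difference was -0.09, beside -0.02 for all. With D3, 1 of the 33 rose, against 2.49% of all called, and 4 of 33 had an unadjusted p under 0.05, against 17%. The called one was RPS6KA1, a kinase activated by ERK (0.55, adjusted p = 0.0205). It averaged 663 ± 63.7 with D3 and 447 ± 50.7 in untreated cells (SD, n = 6 and 4). GAB1, an adaptor of receptor tyrosine kinases, had D3 differences of 0.38 on 225998_at (limma adjusted p = 0.117), 0.39 on 226002_at (adjusted p = 0.143) and 0.26 on 229114_at (adjusted p = 0.241). In p53i cells 229114_at was higher by 0.41 (adjusted p = 0.0511). Mean signals in p53i and LacZi cells lay closer on the other probe sets, at 258 and 242 on 225998_at and 198 and 191 on 226002_at.

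Of genes that ERK induces, 14 had 19 tested probe sets, and 2 rose with D3, against 2.49% of all called. At an unadjusted p under 0.05 there were 8 of 19, against 17% of all. CCND1, cyclin D1, averaged 2225 ± 164 with D3 and 1647 ± 212 in untreated cells on 208712_at (SD, n = 6 and 4; 0.44, adjusted p = 0.0205), and FOS, an AP-1 subunit, averaged 3201 ± 187 with D3 and 2325 ± 378 in untreated cells (0.47, adjusted p = 0.0244). The median D3 difference of this list was 0.25, beside 0.005 for all tested probe sets. At 50 h CCND1 was called (0.48, adjusted p = 0.0423), 1 of 19 against 2.32% of all. The list's median was then 0.43, beside 0.006 for all. TNFRSF12A, the receptor for the cytokine TWEAK, had 0.49 with D3 (adjusted p = 0.102). With p53 siRNA 1 of the 19 was called, against 3.82% of all, and 4 of 19 had an unadjusted p under 0.05, against 20.7%. The called one was MYC, which fell (-0.53, adjusted p = 0.043). It averaged 1504 ± 225 in p53i and 2215 ± 543 in LacZi cells (SD, n = 5 each).

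Among 6 other MAP kinase phosphatases and relatives, with 10 tested probe sets, 0 were called for D3 and 0 for siRNA by limma. At an unadjusted p under 0.05 there were 3 of 10 for D3 and 2 of 10 for siRNA, against 17% and 20.7% of all. SPRED3, a further SPRED, had 0.59 with D3 (adjusted p = 0.196), and DUSP8, a JNK phosphatase, 0.35 (adjusted p = 0.216), and the list's median was 0.19. Of the p38 and JNK cascade, the pathway DUSP10 acts on, 9 genes had 19 tested probe sets. MAP2K4, a JNK kinase, was higher in p53i cells on 1 of its probe sets (0.40, adjusted p = 0.0429), 1 of 19 against 3.82% of all. At an unadjusted p under 0.05 there were 4 of 19 for siRNA, against 20.7% of all. With D3 0 of 19 were called, with 2 of 19 against 17% of all unadjusted and a median of 0.09. With 1 array left out, the D3 calls numbered 0 to 1 in the ERK cascade (1 without p53i 50 h or p53i untreated replicate 2, otherwise 0) and 0 to 3 among ERK-induced genes (0 without LacZi untreated replicate 1, p53i untreated replicate 1 or any array at 8 or 20 h). The siRNA calls numbered 0 to 3 in the ERK cascade (0 without any D3 array other than LacZi 8 h) and 0 to 1 among ERK-induced genes (0 without LacZi untreated replicate 2 or any array at 8 or 20 h). In the p38 and JNK cascade the siRNA calls numbered 0 without either LacZi untreated replicate or any array at 20 or 50 h. The ratio of ACTB and the luminal marker sums given above move with the siRNA groups here as well, and with the ACTB ratio as covariate 0 of the 33 ERK cascade, 0 of the 19 ERK-induced and 0 of the 19 p38 and JNK probe sets were called for siRNA.

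The patterns most like those of 3 members over the 10 arrays were found by Pearson's r, given as a description of arrays that share their treatments. For DUSP10 on 221563_at the nearest were TNKS2 (0.93), CSNK1A1 (0.927), SLC25A23 (0.923), TEPSIN (0.915) and ZFYVE16 (0.912). For DUSP6 on 208891_at they were DNAAF10 (0.886), AHCTF1 (0.879), MKLN1 (0.878), NCEH1 (0.877) and NCK1 (0.875). For SPRY4, added after its values were seen, they were WASHC4 (0.973), SGPP2 (0.963), PHLDA1 (0.944), PIGQ (0.943) and ASPH (0.94). PHLDA1 is itself on the list of ERK-induced genes, and its D3 difference was 0.52 ± 0.20 (adjusted p = 0.214), with 69.7 ± 11.6 in D3 and 45.4 ± 19.3 in untreated cells (SD, n = 6 and 4). Its likeness to SPRY4 was on 217996_at, among several PHLDA1 probe sets on the array. It was found over these same arrays, so the D3 difference is not independent of it.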

How the data were processed

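Per the submitters' processing notes the deposited intensities, linear values for 54675 probe sets and 10 arrays, are MAS5 signals, with no software version given in the sources used here. Each array had been scaled to the same trimmed mean, and nothing further was normalized, so low signals near background are noisy. Groups came from the labels; 1 title spells the siRNA differently and its group came from another label. The labels disagree on how long after transfection D3 was given. Per the platform annotation 41097 probe sets carry 1 symbol, 1801 several and 11777 none. Values were tested as log2(signal + 16), which understates changes of weak genes, with limma 3.58.1 in R 4.3.3 (intensity trend, two-sided, Benjamini-Hochberg over 22031 probe sets in the upper 50% by mean, signal above 35.4). A model adding siRNA and D3 time gave the siRNA and D3 effects, D3 within each siRNA and the interaction came from it with their product added, and the untreated comparison from 8 group means. A lone array per D3 time is assumed to vary like the others, and p-values measure the spread between these samples, which may be technical. The fits were run on simulated data with known changes and independent noise. Those data held no shift shared by the probe sets of an array, so they cannot show how such shifts act here.

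The members and lists were chosen with earlier results of these data known. All member probe sets were named, with CYP24A1, up to 4 genes per list (those called first, then by smallest p) and the 5 patterns most like DUSP10 and DUSP6. Of the lists' genes, some were not analysed here.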

Additional observations from a re-analysis of the deposited data

Results flagged for a closer look

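DUSP6 on 208891_at stood out because its D3 arrays moved in opposite directions in the 2 siRNAs: 3 of 3 lay below the untreated mean in p53i cells and 3 of 3 above it in LacZi cells. The difference between the D3 effects was -0.711 and was tested by the interaction, which it did not pass (limma adjusted p = 0.864). It was -1.13 without p53i untreated replicate 2 (adjusted p = 0.626) and -0.29 without p53i untreated replicate 1 (adjusted p = 0.824).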

How the results depend on the processing

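The 1 call over the 3 D3 times became 0 under median centring, without the filter, without an intensity trend, with 8 group means and without the pair of arrays highest in ACTB ratio, and 0 to 1 with each array left out. SPRY4 was then 0.422, 0.513, 0.513, 0.513 and 0.413, and 0.399 to 0.585 with each array left out (called without LacZi 50 h and without p53i untreated replicate 2). At 50 h the 1 call became 0 under median centring (0.563), without the filter (0.665) and without the trend (0.665), and 0 to 1 with each array left out (0.447 to 0.884; called without either p53i untreated replicate). Over all probe sets, against 548 calls for D3 and 841 for siRNA, array removal gave 103 to 1087 and 98 to 1200, no filter 284 and 398, no trend 97 and 82, group means 55 and 34, the block 1032 and 1508, and the ACTB covariate 882 and 59. Without the trend the 4 other lists had 0 calls for D3 and for siRNA; median centring left 0 for D3 in the ERK cascade, and 1 for D3 and 0 for siRNA among ERK-induced genes. These list alternatives, and those of the family's medians and counts of positive values, were chosen after seeing the data. Fewer arrays or other probe sets enter some of these fits; otherwise the cause was not tested. Median centring moved the median of all probe sets by over 0.1 at 20 and 50 h (to -0.10 each), in the interaction (to -0.13) and for untreated siRNA (to 0.10). With the replicate block, on 2 untreated pairs that share only a number (r = 0.147), the family's counts over all cells did not move (SPRY4 0.513, adjusted p = 0.0202), while SPRY4 was called within p53i cells (0.64, adjusted p = 0.0402). Member values took the other sign in 2.8 to 11.2% of alternative values per comparison. Signal over background limits the 6 dim probe sets and also weak tested ones, such as SPRED1 on 235074_at (24 to 96) and SPRY2 (31.5 to 124).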
